A study of Mus musculus with 16 samples.

Results

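The genes described here are 10 transcription factor genes that pattern the developing inner ear: the T-box genes Tbx1, Tbx2 and Tbx3, the distal-less homeobox genes Dlx3, Dlx5 and Dlx6, the orthodenticle homeobox genes Otx1 and Otx2, and the H6 family homeobox genes Hmx2 and Hmx3. They were chosen by symbol, and all 10 were found among the 47729 genes with values. P4 mouse cochleae gave 16 RNA libraries, 4 for each combination of genotype (control or DTR) and fraction (input or IP). Control mice were GLAST CreERT/+; Rpl22 HA/+, and DTR mice carried Lgr5 DTR/+ in addition, so the tagged ribosomal protein and the Cre allele were shared by all groups. In DTR mice, Lgr5+ supporting cells carry the diphtheria toxin (DT) receptor. Per the study's methods DT and tamoxifen were given to both genotypes at P1, while the sample labels state no treatment for the controls. Input is RNA of the whole homogenate, and IP is RNA bound to HA-tagged ribosomes of the cells that expressed the GLAST (Slc1a3) driven Cre, which include cells of the greater epithelial ridge (GER) and inner phalangeal cells. Cochleae were pooled for each replicate (8 from 4 mice), and input and IP with the same replicate number came from 1 homogenate.

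T-box and homeobox proteins bind DNA and turn sets of target genes on or off. In the otic vesicle they divide the epithelium into territories: Dlx and Hmx genes act on the vestibular side, Otx genes mark non-sensory territories that include the roof of the cochlear duct, and Tbx1 opposes the neurogenic territory. In the later cochlea Tbx2 is known for its part in the identity of inner hair cells and their neighbouring supporting cells. Hedgehog and Wnt signals set the borders between these territories.

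Lgr5, the gene whose cells were targeted, was 63.3 ± 3.03 CPM (counts per 1000000 reads on genes, SD, n = 4) in control input and 15.9 ± 3.69 in DTR input. The control IP held 36.6 ± 3.99 CPM and the DTR IP 9.38 ± 1.40, so the libraries followed their control and DTR labels. Lgr5 does not check the input and IP labels. Slc1a3, the gene that drives the Cre, was 281 ± 14.3 CPM in control input and 236 ± 21.9 in control IP. Its LFC of IP against input was -0.20 in control (limma adjusted p = 0.102) and -0.27 in DTR (0.0299), so Slc1a3 RNA was not higher in the IP. The 9 markers of the GER summed to 13043 to 18439 CPM in control input and 19747 to 26778 in control IP, where 2 of them were higher and 3 lower than in input. Counted reads per library ranged from 28089836 to 41966310.

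Levels of different genes were compared per kilobase of exon. In control input the order was Tbx2 at 35.5 ± 2.60 CPM per kb, Tbx1 at 13.8 ± 2.00, Dlx5 at 4.71 ± 0.824 and Tbx3 at 1.57 ± 0.480. The libraries of these 4 genes did not overlap with each other, and those of Tbx3 overlapped with the next gene, Dlx3. Below them came Dlx3 at 0.904 ± 0.156, Otx2 at 0.624 ± 0.294 and Otx1 at 0.218 ± 0.168 CPM per kb, and each of these overlapped with its neighbour. Hmx3, Hmx2 and Dlx6 ended the order, at 0.101 ± 0.137, 0.0930 ± 0.140 and 0.0356 ± 0.0167 CPM per kb, and did not differ beyond their spread. In control IP, Dlx5 rose to 15.9 ± 2.66 CPM per kb and overlapped with Tbx1 at 17.3 ± 2.96, while Tbx2 stood apart at 69.3 ± 3.23.

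**Figure D1:**
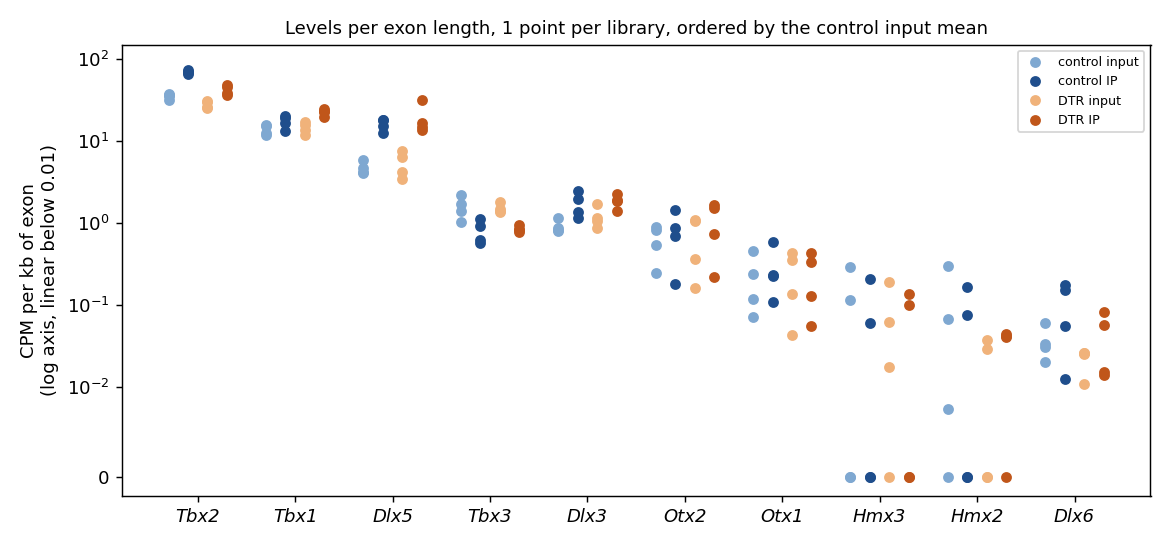
CPM per kilobase of exon (y axis, logarithmic above 0.01 and linear below) of the 10 genes (x axis), 1 point per library, coloured by group. Tbx2 led in every group, with means from 28.0 CPM per kb in DTR input to 69.3 in control IP, and the libraries of Hmx2 and Hmx3 reached 0.

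Tbx2, on chromosome 11 (GRCm38, 85832551 to 85841948, plus strand), was the member whose change after damage passed with and without the replicate number in the fit. Its control IP libraries held 253, 254, 235 and 264 CPM, and its DTR IP libraries 172, 164, 132 and 141 CPM. All 4 DTR IP libraries lay below all 4 control IP libraries. The LFC (log2 fold change, here from log2 of quantile normalized CPM + 0.5) of DTR IP against control IP was -0.72 ± 0.10 (SE; limma, Benjamini-Hochberg adjusted p = 4.84e-05). The lowest control IP value divided by the highest DTR IP value, the separation, was 1.35 after normalization, below the 1.5 that the study's criteria ask for, and its LFC was below 1 in size.

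In input, Tbx2 was 115, 134, 137 and 129 CPM in control and 109, 92.2, 93.2 and 112 CPM in DTR. These groups did not overlap either, and the LFC was -0.33 ± 0.10 (limma, adjusted p = 0.0376). That call was lost in 6 of 8 fits that left out 1 library: without DTR input replicates 1, 2 or 3, and without control input replicates 2, 3 or 4, the adjusted p lay between 0.0574 and 0.123. The difference between the changes in IP and input (the interaction) was -0.39 ± 0.14 with an adjusted p of 0.708 by limma, so a larger fall in IP than in input did not pass. In these pooled tissues, fewer cells of a type and less RNA per cell cannot be told apart.

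Markers of Lgr5+ supporting cells moved with Tbx2. In DTR IP 9 of the 11 markers were lower than in control IP, and their summed level ranged from 1575 to 1734 CPM in control IP and from 526 to 675 in DTR IP. In input 10 of 11 were lower, with sums of 1251 to 1506 CPM in control and 576 to 743 in DTR. Of the 9 GER markers, 3 were lower and 0 higher in DTR IP, and their sum was 15178 to 18341 CPM there, below the control IP range given above. In input 2 GER markers were higher and 0 lower, and the sums overlapped, at 13043 to 18439 CPM in control and 12252 to 18048 in DTR. The part of these cells in the change of Tbx2 was not tested.

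Of the 7 members that passed the filter on low values, 0 were higher and 1 was lower in DTR IP than in control IP, where 8.44% of the 16994 tested genes were higher and 7.30% lower. In DTR input against control input 0 were higher and 1 lower, against 7.17% and 5.21% of tested genes. The median LFC of the 7 was 0.02 in IP and -0.06 in input, beside -0.0043 and -0.0205 over all tested genes. With the study's criteria for damage added, 0 members were called in either comparison, where 1.12% of genes were called higher and 1.34% lower in IP, and 1.34% higher and 1.00% lower in input. For the interaction 0 members passed, where 0% of genes passed higher and 0.0118% lower. At an unadjusted p under 0.05 the interaction held 1 member, Tbx2, and edgeR and DESeq2 on the recovered reads called 0.

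**Figure D2:**
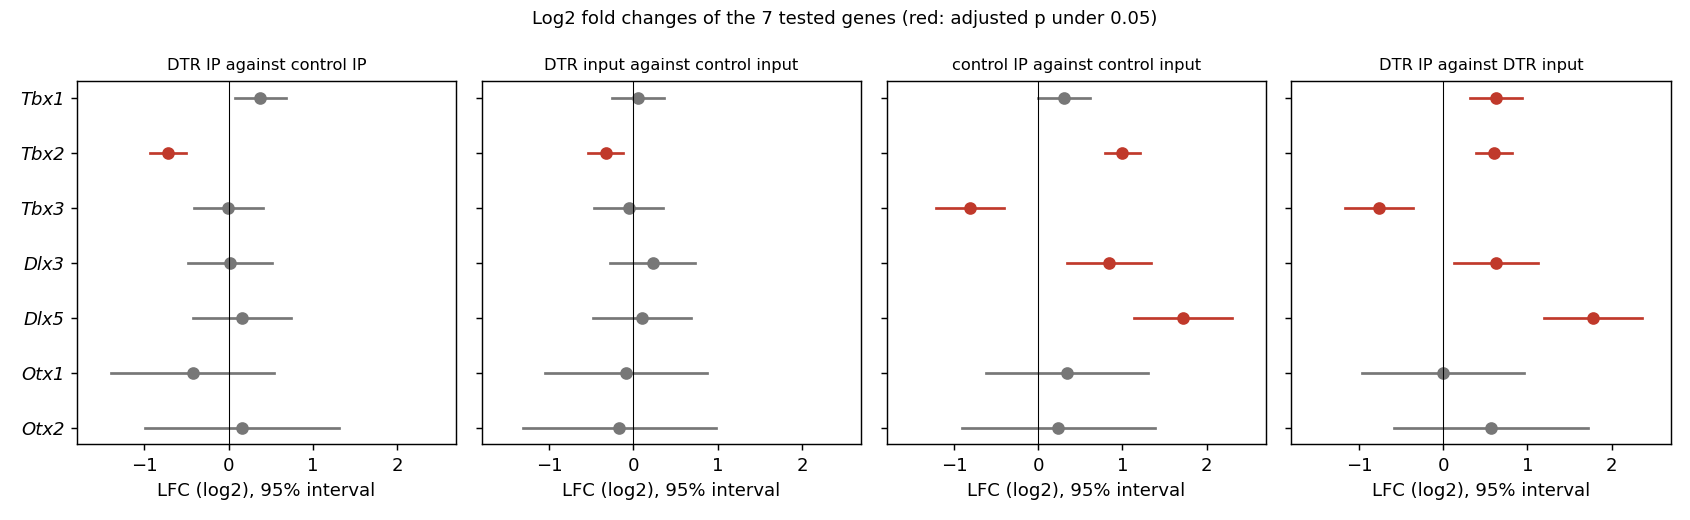
LFC with its 95% interval (x axis, log2) of the 7 tested genes (y axis) in 4 comparisons, red where the adjusted p was under 0.05. Tbx2 is red in all 4 panels, with an LFC of -0.72 and -0.33 after damage and 1.00 and 0.61 in IP against input.

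Tbx1 (chromosome 16, 18580979 to 18590671, minus strand) encodes a T-box factor required for inner ear morphogenesis. It was 58.5, 70.6, 47.0 and 66.7 CPM in control IP and 69.4, 82.1, 78.4 and 86.7 in DTR IP. The lowest DTR IP library lay just under the highest control IP library, and the DTR IP library was the higher in 4 of 4 same-numbered pairs. The LFC was 0.38 ± 0.15 (limma, adjusted p = 0.0917) and passed only with the replicate number as a block (adjusted p = 0.00837, and 0.00914 with a length and GC correction added). With the block, 2 of the 7 tested members passed in this comparison instead of 1, beside 23.3% of all tested genes instead of 15.7%.

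In input Tbx1 was 41.3, 54.7, 43.5 and 54.2 CPM in control and 41.2, 55.7, 48.2 and 59.2 in DTR, which overlapped throughout (LFC 0.06, 95% interval -0.25 to 0.37). All 4 DTR IP libraries were above all 4 DTR input libraries (LFC 0.62 ± 0.15, limma adjusted p = 0.00247). Control IP was the higher in 4 of 4 pools as well, but the groups overlapped (LFC 0.30 ± 0.15, limma adjusted p = 0.109). This control value passed with the replicate block (0.0124), without control IP replicate 3 (LFC 0.42, 0.0329), with edgeR (0.0405) and with DESeq2 (0.0460). With the length and GC correction it was 0.14 and did not pass, with the block (0.140) or without it (0.432). The interaction of 0.32 ± 0.21 did not pass (limma adjusted p = 0.999).

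Periotic mesenchyme markers also moved between the IP groups. Of 13 such markers, 7 passed as higher after damage, and their sum ranged from 5185 to 6319 CPM in control IP and from 7346 to 8222 in DTR IP. The mesenchymal T-box gene Tbx18, which is on that list, was 123 ± 22.1 CPM in control IP and 190 ± 23.7 in DTR IP (LFC 0.67 ± 0.13, limma adjusted p = 0.00105). Of 9 macrophage markers 6 were higher, with sums of 20.7 to 30.6 CPM in control IP and 44.1 to 74.2 in DTR IP, and of 7 endothelial markers 3 were higher, with sums of 95.6 to 123 and 163 to 178 CPM. The part of these cells in the Tbx1 values was not tested.

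Tbx3 (chromosome 5, 119670669 to 119684724, plus strand), the close relative of Tbx2, was the only tested member that was lower in IP than in input. It was 14.3, 11.3, 9.24 and 6.78 CPM in control input and 6.07, 7.33, 4.03 and 3.79 in control IP. The groups overlapped, with IP lower in 4 of 4 pools (LFC -0.81 ± 0.19, limma adjusted p = 0.00256). In DTR it was 9.63, 9.31, 8.94 and 11.8 CPM in input and 6.17, 5.16, 5.33 and 5.56 in IP, without overlap (LFC -0.76 ± 0.19, limma adjusted p = 0.00449). Between DTR IP and control IP its LFC was -0.0045, with a 95% interval from -0.41 to 0.40. Its antisense gene Tbx3os1 shares 115 of 6624 exonic bases with it, and the library kit does not mark strand. Tbx3os1 held 6 to 46 reads per library, against 116 to 599 for Tbx3.

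Tbx2 itself was higher in IP than in input without overlap in both treatments. The LFC was 1.00 ± 0.10 in control (limma adjusted p = 3.88e-07) and 0.61 ± 0.10 in DTR (limma adjusted p = 0.000120). The T-box members thus went both ways, with Tbx2 higher and Tbx3 lower in the ribosome-bound RNA.

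Dlx5 (chromosome 6, 6877805 to 6882085, minus strand), a homeobox gene of the dorsal otic epithelium, had the largest LFC between IP and input of the 7 tested members. Its control libraries held 9.46, 9.23, 10.6 and 13.3 CPM in input and 34.8, 28.1, 40.2 and 41.2 in IP. Its DTR libraries held 7.77, 9.49, 16.9 and 14.3 CPM in input and 33.7, 30.7, 71.1 and 37.6 in IP. Every IP library was above every input library of the same treatment. The LFC was 1.72 ± 0.28 in control (limma adjusted p = 7.42e-05) and 1.78 ± 0.28 in DTR (limma adjusted p = 6.18e-05), both short of the LFC of 2 asked by the study's criteria. The study itself reports Dlx5 as enriched in the IP, also by nCounter, a probe-based count of RNA. Its cluster analysis placed the gene among those enriched in the Cre-expressing cells. Dlx5 did not pass between DTR IP and control IP (LFC 0.16, 95% interval -0.42 to 0.74).

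Dlx6 (chromosome 6, 6863334 to 6868568, plus strand) is the neighbour of Dlx5 and faces it on the opposite strand. It was far lower, at 1 to 14 reads and 0.0255 to 0.407 CPM per library, and was not tested because it failed the filter. In control IP it was 0.359, 0.407, 0.0294 and 0.131 CPM, and in control input 0.0477, 0.141, 0.0725 and 0.0776, which overlapped. The antisense gene Dlx6os1, which overlaps Dlx6 but shares 0 exonic bases, held 0 to 21 reads per library. Dlx6os2, which shares 104 of 2375 exonic bases with Dlx6, held 0 to 2.

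Dlx3 (chromosome 11, 95120119 to 95125296, plus strand), another otic Dlx gene, was 2.05, 2.28, 2.95 and 2.15 CPM in control input and 3.50, 5.12, 6.38 and 2.94 in control IP. IP was higher in 4 of 4 pools, and the groups touched at 1 library (LFC 0.84 ± 0.24, limma adjusted p = 0.00892). In DTR it was 2.27, 2.75, 3.01 and 4.45 CPM in input and 3.66, 5.91, 5.00 and 4.87 in IP (LFC 0.63 ± 0.24, limma adjusted p = 0.0442). This DTR call was lost in 6 of 8 fits that left out 1 library, where the adjusted p reached 0.146, with edgeR (0.0705), with DESeq2 (0.0526) and without the filter on low values (0.113). It was also lost without quantile normalization (0.0547), with median centring (0.0660), with the length and GC correction (0.0794) and with the compared groups alone (0.0657). The 6 fits were those without DTR input replicates 1, 2 or 3 and those without DTR IP replicates 2, 3 or 4.

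Of the 7 tested members, 3 were higher (Tbx2, Dlx3 and Dlx5) and 1 was lower (Tbx3) in control IP than in control input, where 19.3% of tested genes were higher and 20.7% lower. In DTR, 4 were higher (Tbx1, Tbx2, Dlx3 and Dlx5) and 1 was lower (Tbx3), beside 18.6% and 20.5% of genes. The median LFC of the 7 was 0.34 in control and 0.61 in DTR, beside -0.0012 and -0.0271 over all tested genes. Under the study's enrichment criteria 0 members were called in either treatment, where 0.535% of genes were called higher and 0.247% lower in control and 0.506% and 0.129% in DTR. Hair cell, macrophage and endothelial markers were lower in the IP: 13 of 15, 9 of 9 and 7 of 7 in control. The control and DTR comparisons of IP with input share no library.

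**Figure D3:**
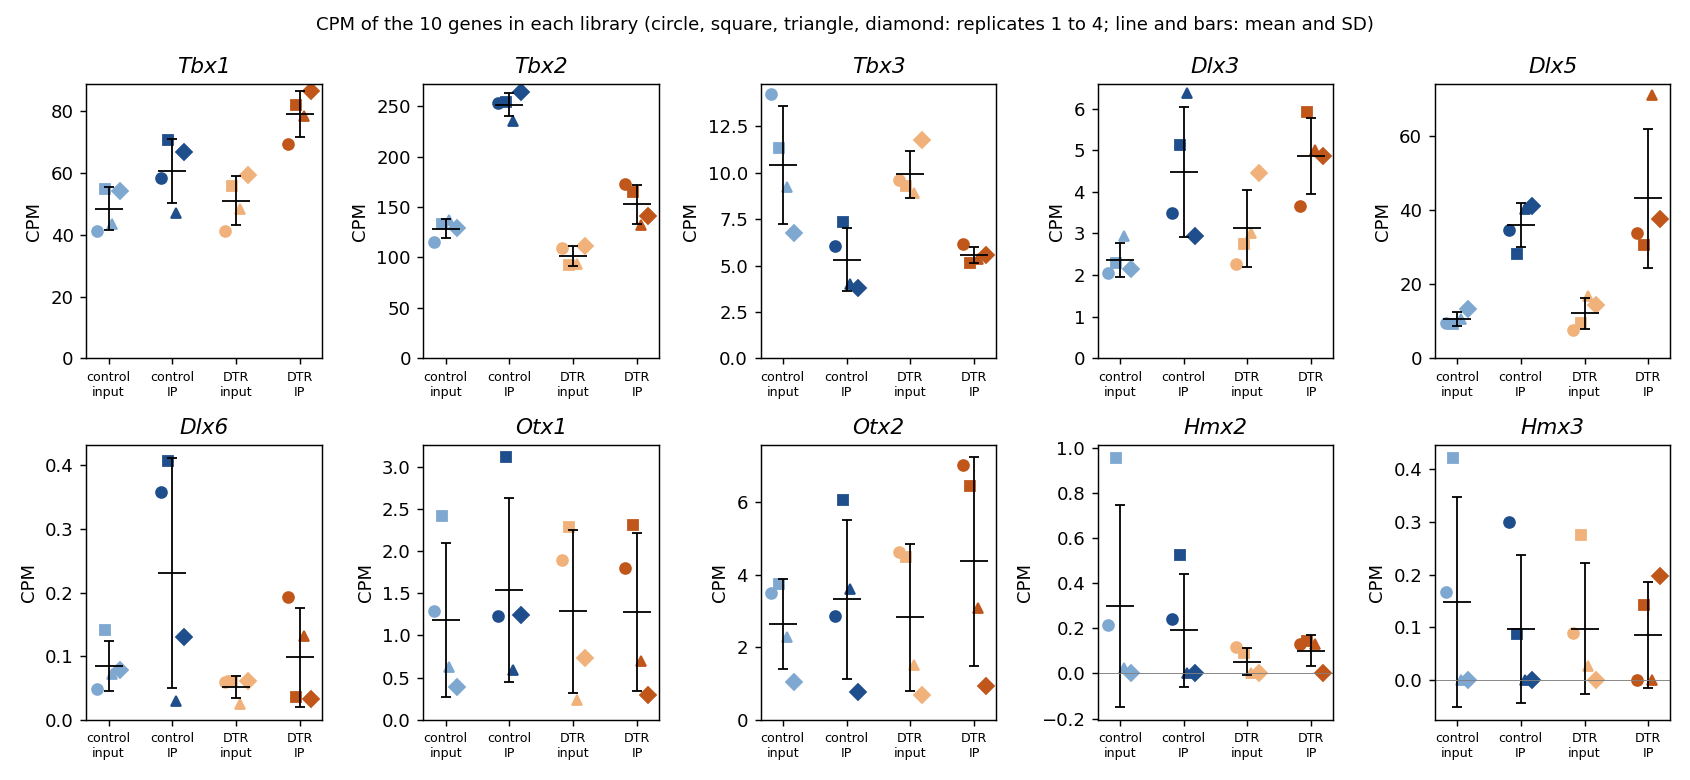
CPM (y axis, a scale of its own for each gene) of the 10 genes in each of the 16 libraries, by group (x axis), with symbols for the replicate number and lines for mean and SD. The control IP libraries of Tbx2 (235 to 264 CPM) stand above all others, the IP libraries of Dlx5 stand above its input libraries within each treatment, and the values of Otx1, Otx2, Hmx2 and Hmx3 spread within each group.

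Otx2 (chromosome 14, 48657677 to 48673819, minus strand) and Otx1 (chromosome 11, 21994764 to 22002897, minus strand) varied more between pools than between groups. Otx2 was 3.48, 3.74, 2.27 and 1.03 CPM in control input and 2.87, 6.05, 3.62 and 0.752 in control IP, given in the order of replicates 1 to 4. In DTR it was 4.61, 4.49, 1.51 and 0.670 CPM in input and 7.01, 6.44, 3.08 and 0.921 in IP. In each of the 4 groups the library numbered 4 was the lowest. Of the variance within groups, 89.2% lay between replicate numbers, where the median over tested genes was 41.8% and 98.8% of them lay below Otx2.

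Otx1 was 1.29, 2.42, 0.629 and 0.388 CPM in control input and 1.23, 3.11, 0.588 and 1.24 in control IP. In DTR it was 1.89, 2.29, 0.230 and 0.731 CPM in input and 1.80, 2.31, 0.696 and 0.296 in IP. The library numbered 2 was the highest in each group, and 82.8% of the variance within groups lay between numbers. Over the 4 groups the medians by number were 1.54, 2.37, 0.608 and 0.560 CPM for Otx1 and 4.04, 5.27, 2.68 and 0.836 for Otx2. Tbx1 (78.4%) and Dlx5 (70.1%) also varied mainly with the number, and Tbx2 (12.7%) did not.

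Markers of Reissner's membrane and the cochlear roof, tissue that the study's dissection removed, varied with the number too. Their summed level had medians of 406, 620, 198 and 115 CPM in numbers 1 to 4. Most of that sum was Oc90, the otoconial protein gene made by roof epithelium, which averaged 293, 509, 147 and 76.7 CPM. Vmo1, Lmx1a, Slc26a7 and Slc26a4 were also lower on average in numbers 3 and 4 than in 1 and 2. Wnt4, on the same list, averaged 13.2, 18.2, 15.7 and 14.8 CPM and did not follow this pattern. By group the sum ranged from 178 to 893 CPM in control input, 159 to 695 in control IP, 71.4 to 545 in DTR input and 60.9 to 380 in DTR IP, and 0 of the 6 markers passed between DTR and control in either fraction. Neuron markers, of the likewise removed spiral ganglion, had summed medians of 456, 310, 143 and 59.8 CPM in numbers 1 to 4. Stria vascularis marginal cell markers, of the lateral wall that was also removed, did not follow this order. Their summed medians were 784, 951, 853 and 738 CPM. How much of the Otx1 and Otx2 RNA came from such tissue was not tested.

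**Figure D4:**
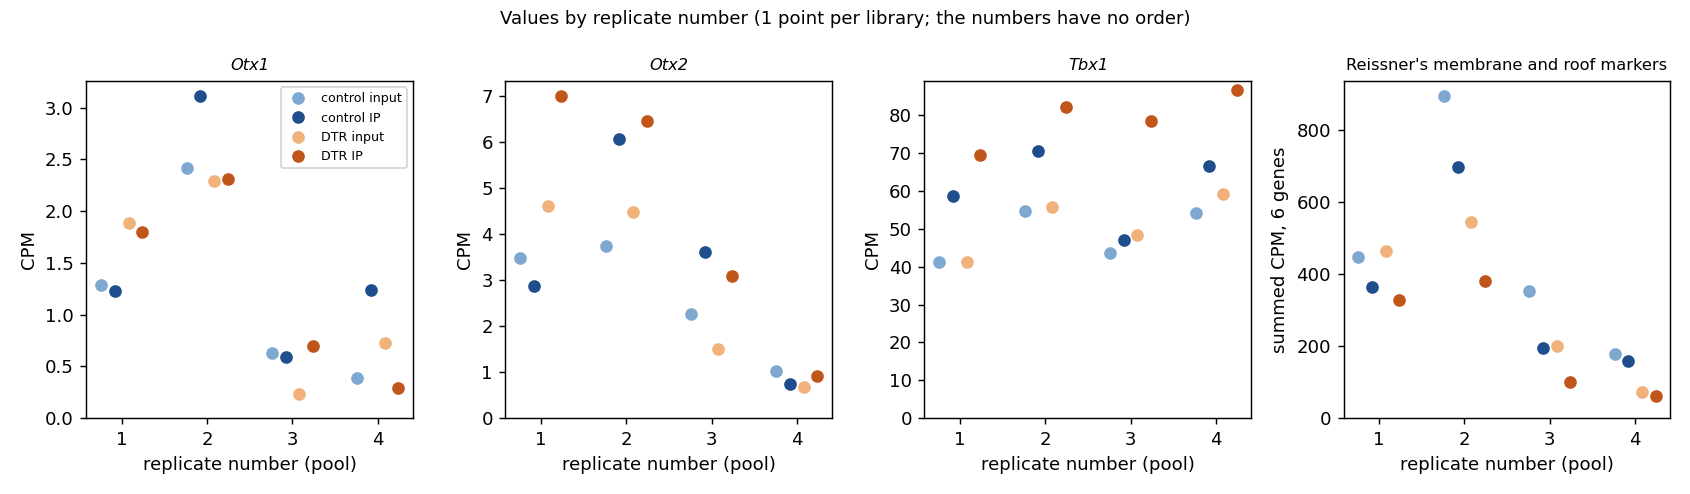
CPM of Otx1, Otx2 and Tbx1 and the summed CPM of 6 Reissner's membrane and roof markers (y axes) by replicate number (x axis), 1 point per library, coloured by group. Otx2 and the marker sum were lowest in number 4 in all 4 groups. There Otx2 lay between 0.670 and 1.03 CPM and the sum between 60.9 and 178 CPM.

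Neither Otx gene passed between groups in the fit without the block. The LFC of DTR IP against control IP was 0.16 for Otx2 (95% interval -0.99 to 1.31) and -0.43 for Otx1 (-1.39 to 0.53), so changes of more than 1 log2 unit lie within the intervals. In DTR, Otx2 was higher in IP than in input in 4 of 4 pools (LFC 0.57, limma adjusted p = 0.439), and it passed with the replicate block (adjusted p = 0.0201). With the block, 6 of the 7 tested members passed in this comparison instead of 5, beside 48.2% of all tested genes instead of 39.2%. In control Otx2 was higher in 2 of 4 pools, and the interaction did not pass (0.33, limma adjusted p = 0.999, and 0.820 with the block). The overlapping noncoding gene Otx2os1, which shares 154 of 4221 exonic bases, held 0 to 18 reads, against 22 to 218 for Otx2.

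Hmx3 (131542867 to 131544925) and Hmx2 (131548773 to 131558014) are neighbours on the plus strand of chromosome 7 and are known for vestibular morphogenesis. Hmx2 held 0 to 34 reads and Hmx3 0 to 15 reads per library, and neither passed the filter. Hmx2 was 0.214, 0.957, 0.0242 and 0 CPM in control input, 0.239, 0.524, 0 and 0 in control IP, 0.118, 0.0916, 0 and 0 in DTR input and 0.129, 0.142, 0.133 and 0 in DTR IP. Hmx2 had 0 reads in all 4 libraries numbered 4. Hmx3 was at 0 in 7 of 16 libraries, 6 of them numbered 3 or 4. In a fit without the filter neither passed in any comparison, and Dlx6 did not either (limma adjusted p from 0.137 to 0.982 for Dlx6).

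Promoter sequences from RefSeq (GRCm38.p6) were matched for 4 of the 10 members, Tbx1, Otx2, Hmx2 and Hmx3. The 250 bases before the start nearest to the annotated 5′ end are shown for Tbx1 and Otx2, since the replicate block changed calls for both. Capitals mark the homeodomain core TAAT on either strand, which both Otx and Dlx proteins can bind, and adjacent matches share bases.
Tbx1, chr16:18590672-18590921, minus strand: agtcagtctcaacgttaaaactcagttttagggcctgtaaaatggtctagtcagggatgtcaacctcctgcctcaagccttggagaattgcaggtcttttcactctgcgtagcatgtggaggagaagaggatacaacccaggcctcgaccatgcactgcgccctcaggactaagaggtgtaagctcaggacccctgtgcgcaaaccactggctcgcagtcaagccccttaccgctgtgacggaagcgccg
Otx2, chr14:48667645-48667894, minus strand: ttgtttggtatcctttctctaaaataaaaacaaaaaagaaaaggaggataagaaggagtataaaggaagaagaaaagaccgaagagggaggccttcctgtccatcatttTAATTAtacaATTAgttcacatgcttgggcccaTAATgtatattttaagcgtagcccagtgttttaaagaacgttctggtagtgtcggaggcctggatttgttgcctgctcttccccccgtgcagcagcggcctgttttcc
The Otx2 window holds 4 matches and the Tbx1 window 0, and 54.9% of all 32851 promoters hold at least 1 in the same length. The longer Otx-type motif TAATCC (6.25% of promoters) and the T-box core GGTGTGA (3.33%), searched on both strands, are in neither window. Otx2 has 4 promoter entries and Tbx1 has 2, and the others are not shown. The Otx2 window at chr14:48665110-48665359 holds 10 core matches and 1 Otx-type match. Those at chr14:48667509-48667758 and chr14:48662735-48662984 hold 2 and 1 core matches and no Otx-type match. The other Tbx1 window holds no match to any of these motifs. The Otx2 start used here lies 6175 bases inside the gene from its annotated 5′ end, and the Tbx1 start at the end itself.

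The genes whose values across the 16 libraries were most like each member, by Pearson's r on the log2 scale, are given as a description, since the libraries share groups and pools. They were Dmtn (0.979) and Sema6b (0.967) for Tbx2, Ing4 (0.970) and Gm26762 (0.969) for Dlx5, and Wnt9a (0.957) and Ccdc117 (0.924) for Dlx3. Tbx3 was most like Thsd4 (0.957) and Fhdc1 (0.948). For Otx2 they were Tmem72 (0.952) and Zfp804a (0.899), and for Otx1 Kcnc1 (0.868) and Entpd3 (0.855). Tbx1 was most like Slc30a3 (0.897), and the files give its next gene no symbol.

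Of 25 other genes of these families and their antisense partners, 8 were tested. In DTR IP against control IP 2 were higher and 0 lower (median LFC 0.17), beside 8.44% and 7.30% of all tested genes. The higher ones were Tbx18 and the dual T-box and helix-loop-helix gene Mga. Mga was at 52.7 ± 10.1 CPM in control IP and 85.8 ± 7.24 in DTR IP (LFC 0.69 ± 0.12, limma adjusted p = 0.000346). In control IP against control input 1 was higher, Mga (LFC 0.45), and 2 were lower, Dlx2 (-0.65) and Tbx18 (-0.34), beside 19.3% and 20.7% of all tested genes. The T-box gene T (brachyury), named after its values were seen, had 0 reads in all 8 control libraries. It held 13 to 34 reads in the 4 DTR input and 15 to 29 in the 4 DTR IP libraries, or 0.332 to 1.04 CPM, too few for the filter.

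Of 30 other otic patterning factors tested, 11 were lower and 1 was higher when DTR IP was set against control IP (median LFC -0.28), beside 7.30% lower and 8.44% higher among all tested genes. Sox2 and Prox1 on this list are also supporting cell markers. Emx2, an otic homeobox gene, went from 14.0 ± 2.66 to 3.39 ± 1.17 CPM, and Sall1 from 123 ± 16.9 to 34.8 ± 6.63. Bmp4, a signal from the lateral epithelium, went from 70.6 ± 17.9 to 20.0 ± 5.57 CPM, and Fgf3 from 5.09 ± 1.21 to 0.0241 ± 0.0482. The study also tested the change of Bmp4 after damage by nCounter, and that assay did not bear it out. In control IP against input 13 were higher and 3 lower (19.3% and 20.7% over all tested genes), the higher among them Sall4 (LFC 1.93), Isl1 (1.91) and Zic2 (1.47).

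Of 12 Wnt response genes, 0 were higher and 4 lower in DTR IP than in control IP (median LFC -0.14), beside 8.44% and 7.30% of all tested genes. They were the Wnt inhibitor Notum (-1.14), the R-spondin receptor Lgr6 (-1.08), the transcription factor Sp5 (-0.66) and the feedback inhibitor Nkd1 (-0.58). In control IP against input 4 were higher and 4 lower (19.3% and 20.7% of all tested genes), and the 4 with the largest LFC were Znrf3 (1.13), Notum (-1.10), Tcf7l2 (0.86) and Tcf7l1 (0.72). Of 12 tested hedgehog genes, 0 passed between DTR IP and control IP by limma (1 at an unadjusted p under 0.05), with a median LFC of -0.04. In control IP against input 1 hedgehog gene was higher and 4 were lower, beside the same 19.3% and 20.7%. Disp1 (-0.93), Hhip (-0.75) and Smo (-0.64) were among the lower ones.

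Of 12 tested partners and regulators of the members, 1 passed between DTR IP and control IP, where 15.7% of all tested genes did: the homeobox gene Msx1 (-0.85, at 1.81 ± 0.496 and 1.03 ± 0.621 CPM in control and DTR). In control IP against input 2 were higher and 3 lower, beside 19.3% and 20.7%. Chd7, the chromatin remodeller gene mutated in CHARGE syndrome, was 89.4 ± 13.8 CPM in control input and 314 ± 26.9 in control IP (LFC 1.84). The corepressor gene Ncor1 (0.49) was the other higher gene, and the Groucho family corepressor genes Tle3 (-0.65) and Tle4 (-0.59) were among the 3 lower.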

How the data were processed

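RNA was sequenced from 16 libraries (4 per group) made with the SMART-Seq v4 kit. Values were deposited by the authors as CPM for every gene, 1 column per library. The study's methods name HISAT2 and HTSeq on GRCm38, whereas the submitters' processing notes name TopHat. The annotation release and strand setting are not given in the sources used here. Of 50316 genes listed, 2587 were NA. Values above 0 were whole multiples of 1 read (tolerance 0.05 reads), so reads were recovered for edgeR (version 4.0.16) and DESeq2 (version 1.42.0), used as alternatives. A count of 0 reads allows up to 3 reads, for counting error only.

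CPM were quantile normalized, and the 16994 genes that reached 0.5 CPM in every replicate of 1 or more groups were tested. Log2 (CPM + 0.5) was fitted with limma (version 3.58.1, R 4.3.3) over the 4 groups, using its mean-variance trend, and p-values were adjusted by Benjamini-Hochberg over all tested genes. A gene passed at an adjusted p under 0.05. Printed CPM are as deposited, and fold changes are on the log2 (normalized CPM + 0.5) scale, which understates changes of low genes. On simulated data with 200 changed genes for DTR IP against control IP (16994 genes), 34.3% were recovered at 1.5-fold, 76.1% at 2-fold and 100% at 4-fold, with 4.11% false calls. The changed genes were drawn from those above a minimum mean level, and the simulated libraries shared no variation by replicate number. These shares therefore do not carry over to low genes or to genes that vary with the number, such as Otx1 and Otx2.

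Input and IP of a number share a homogenate. Deviations of same-numbered libraries from their group means correlated at 0.288 or more in every pair of each group pair, control with DTR included. The means between numbers were -0.135 to -0.119. They follow from the same-numbered correlations, since deviations from a group mean cancel within the group, and add no separate evidence. Because of the same-numbered correlations, the numbers were taken as pairs in the counts of pools and in the replicate block. The main limma fit held the 4 groups alone and did not use this pairing, so its p-values leave the shared homogenate out. The fourth replicate of each group carries another number in the deposited data.

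The members, gene lists and rules were chosen with earlier results of these data known. All 10 members were named. From the other lists, up to 4 genes with the largest LFC that passed were named for DTR IP against control IP and for control IP against control input. Some genes that this rule covers are not reported here. Marker lists were given by counts and summed CPM. Positions and exon lengths came from GENCODE M21, and promoters from RefSeq. Alternatives were other normalizations, pseudocounts and filters, a length and GC correction, the replicate block, the compared groups alone, and each library left out.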

Additional observations from a re-analysis of the deposited data

Results flagged for a closer look

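Of 40 groups of 4 libraries (10 genes in 4 groups), 2 held a library far from the other three, where chance gives about 1 in 20. Dlx6 in DTR input was 0.0255 CPM in replicate 3 and 0.0591 to 0.0610 in the others, a gap of 0.945 of the range. Hmx2 in DTR IP was 0 CPM in replicate 4 and 0.129 to 0.142 in the others, a gap of 0.903 of the range. Both rest on 0 to 4 reads per library.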

How the results depend on the processing

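The 896 alternative values were LFCs of members and counts of members called. Of these, 803 were rated the same, 27 weaker and 10 stronger, and 56 changed sign. An LFC was rated the same if it kept its direction and its side of the threshold. Counts were rated by the size of their change, so a small change in count was rated the same. A changed call can enter both as an LFC and as a count, so the 27 and 10 are not numbers of calls. In 0 of the 56 was either value past the threshold. With the replicate block, 2 members instead of 1 passed in DTR IP against control IP, also with the length and GC correction (2), where 23.3% and 25.9% of all tested genes passed instead of 15.7%. In control IP against control input 5 passed with the block and 4 with block and correction, instead of 4. The shares of all tested genes there were 48.8% and 51.1% instead of 39.9%. The block changed no other call than those of Tbx1 and Otx2 given above. Without the filter 0 members instead of 1 passed in DTR input against control input, and with libraries left out 0 to 1. Changes of sign by setting were as follows. For Tbx3, DTR IP against control IP, the LFC became 0.10 without quantile normalization, 0.064 with median centring, 0.012 with the length and GC correction (0.012 with the block too) and 0.0016 with DESeq2. For Otx1, DTR input against control input, it became 0.049 without quantile normalization, 0.037 with median centring, 0.12 with edgeR and 0.090 with DESeq2. For Otx1, DTR IP against DTR input, it became 0.010 without quantile normalization, 0.0016 with a pseudocount of 0.1, 0.079 with the length and GC correction (0.079 with the block too) and 0.0018 with DESeq2. Otx2 in DTR input against control input became 0.089 with edgeR and 0.058 with DESeq2, and the Dlx5 interaction -0.00091 with edgeR. The cause was not tested.

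With 1 library left out, LFCs that changed sign ranged as follows. In DTR IP against control IP they ran from -0.088 to 0.10 for Tbx3, -0.091 to 0.20 for Dlx3, -0.11 to 0.30 for Dlx5 and -0.26 to 0.66 for Otx2. In DTR input against control input they ran from -0.012 to 0.17 for Tbx1, -0.23 to 0.11 for Tbx3, -0.11 to 0.32 for Dlx5, -0.36 to 0.26 for Otx1 and -0.46 to 0.23 for Otx2. Otx2 in control IP against control input ran from -0.053 to 0.66, and Otx1 in DTR IP against DTR input from -0.35 to 0.32. The interaction ran from -0.11 to 0.22 for Tbx3, -0.21 to 0.27 for Dlx5 and -0.093 to 0.83 for Otx2. Tbx2 in DTR IP against control IP stayed past the threshold in every alternative run. At this depth Dlx6, Hmx2 and Hmx3 are limited by their counts.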
